A study of Mus musculus with 12 samples.

Results

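The genes described here are 35 members of the glycolysis and hypoxia response programmes, chosen by symbol from the 55291 gene symbols of a mouse CD8+ T cell RNA-seq count table, in which all 35 were found. Of these, 21 act in glycolysis, as glucose and lactate transporters, glycolytic enzymes and enzymes that set the rate of phosphofructokinase, and 14 belong to the response to low oxygen. The cells came from male wild-type mice, from lymph nodes and spleen, and 4 groups of 3 libraries were sequenced after depletion of ribosomal RNA. The rat tail collagen group held cells activated with plate-bound antibody to CD3 and soluble CD28, expanded with interleukin 2, and on day 3 placed for 24 h in a gel of RatCol collagen at 2 mg/mL, with RNA taken on day 4. The bovine collagen group had the same history and was placed in a gel of Nutragen collagen at 2 mg/mL, also until day 4. The media group was activated and expanded in the same way and kept for the same 24 h in liquid media. The naive group was lysed fresh on day 0 without activation, so that activation, expansion and the time in culture differ together between it and the other groups. All cells were wild type, and the labels do not say whether animals were pooled or whether replicate numbers mark the same mouse, so that p-values measure the spread between these libraries. Cells in gels had also to be recovered from the gel before lysis, and that step cannot be told apart from the gel itself.

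Glycolysis turns glucose into pyruvate in the cytosol, and activated T cells are known to raise it and to release much of the pyruvate as lactate. When oxygen is low, the prolyl hydroxylases that mark the transcription factor HIF-1α for destruction slow down, and HIF-1 raises genes for glucose uptake, glycolysis, lactate export, mitophagy and blood vessel growth. In T cells, signals through the antigen receptor and mTOR can also raise HIF-1α when oxygen is plentiful. MYC binds related E-box sequences and drives many of the same glycolytic genes.

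HIF-1 binds the core letters ACGTG or GCGTG, and promoters were therefore read for 32 members found among RefSeq promoter windows (build GRCm38.p6, each 300 bases, from 250 before to 50 after a transcript start). Either core, on either strand, lay in 39 of the 50 windows of these members (78.0%), against 43.8% of the 32851 windows of all genes. ACGTG alone lay in 54.0% of member windows and 19.6% of all windows, GCGTG in 54.0% and 32.4%, and CACGTG, an E-box that contains ACGTG, in 12% and 7.15%. Windows of 5 members are printed, in lower case with the cores in capitals, for the members that lead the results: Pdk1 and Ankrd37, the most lowered in rat tail collagen; Pfkfb4 and Mxi1, the most raised there; and Slc16a3, the most raised in media over naive cells.
Pdk1, chr2:71872974-71873273, plus strand: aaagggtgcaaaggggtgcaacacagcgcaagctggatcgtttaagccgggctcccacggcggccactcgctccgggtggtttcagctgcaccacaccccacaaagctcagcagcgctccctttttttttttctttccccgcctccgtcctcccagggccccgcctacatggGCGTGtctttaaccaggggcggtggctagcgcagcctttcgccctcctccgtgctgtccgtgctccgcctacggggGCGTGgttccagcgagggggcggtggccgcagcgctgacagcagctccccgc
Ankrd37, chr8:45999801-46000100, minus strand: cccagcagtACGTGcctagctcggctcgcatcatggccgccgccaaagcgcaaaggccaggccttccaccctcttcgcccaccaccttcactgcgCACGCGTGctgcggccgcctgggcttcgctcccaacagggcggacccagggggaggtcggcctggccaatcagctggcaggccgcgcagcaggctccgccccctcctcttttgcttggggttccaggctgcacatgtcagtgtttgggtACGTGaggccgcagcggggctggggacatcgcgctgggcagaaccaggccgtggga
Pfkfb4, chr9:108991652-108991951, plus strand: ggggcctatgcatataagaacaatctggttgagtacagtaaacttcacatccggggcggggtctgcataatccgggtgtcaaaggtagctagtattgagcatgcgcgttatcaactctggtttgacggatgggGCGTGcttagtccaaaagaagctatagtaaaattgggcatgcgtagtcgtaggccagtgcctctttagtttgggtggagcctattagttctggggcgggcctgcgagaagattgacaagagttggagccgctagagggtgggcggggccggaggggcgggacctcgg
Mxi1, chr19:53310256-53310555, plus strand: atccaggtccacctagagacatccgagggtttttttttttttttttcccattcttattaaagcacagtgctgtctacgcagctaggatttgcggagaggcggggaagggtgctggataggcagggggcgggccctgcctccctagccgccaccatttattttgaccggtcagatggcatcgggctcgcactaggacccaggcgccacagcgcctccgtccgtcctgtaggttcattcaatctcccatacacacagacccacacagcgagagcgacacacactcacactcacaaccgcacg
Slc16a3, chr11:120948817-120949116, plus strand: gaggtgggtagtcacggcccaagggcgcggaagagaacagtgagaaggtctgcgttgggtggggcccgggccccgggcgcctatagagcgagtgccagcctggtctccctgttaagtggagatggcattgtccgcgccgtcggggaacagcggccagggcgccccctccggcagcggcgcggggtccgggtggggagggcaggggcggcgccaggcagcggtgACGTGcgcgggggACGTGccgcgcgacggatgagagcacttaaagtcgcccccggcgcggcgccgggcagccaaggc
Slc16a3 holds 2 ACGTG cores, which begin at -27 and -14 from the start, and the Mxi1 window shown, the first of 3 for that gene, holds none. A core lay in at least 1 window of 30 of the 32 members, so its presence could hardly tell the directions of change apart. The share over all genes was taken per window and not per gene. At least 1 window held a core for 7 of the 7 members that have a window and were raised in rat tail collagen over media, for 11 of the 13 that were lower, and for 11 of the 11 that were not called. A match of letters is a description and not a binding site.

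Library totals ran from 28483064 to 53138362 counts. The members together took 0.603% to 0.652% of all counts in rat tail collagen, 0.583% to 0.743% in bovine collagen, 0.546% to 0.760% in media and 0.310% to 0.330% in naive libraries. A level in CPM is a count divided by library size on a common TMM scale, and levels of different genes are compared in RPKM, which also divides by exon length. Ribosomal RNA genes took 5.03% to 13.2% of counts in rat tail collagen, 5.50% to 11.9% in bovine collagen, 4.45% to 4.72% in media and 3.96% to 5.67% in naive libraries, and values without the 3 libraries richest in ribosomal RNA stand beside the counts against media, bovine collagen and naive cells below. Markers of CD8 T cells summed to 2562 to 2772 CPM in rat tail collagen, 3568 to 3823 in bovine collagen, 3584 to 3913 in media and 4380 to 5201 in naive libraries, with none of the 8 at 0 in any group. Of these 8 markers 5 were lower in rat tail collagen than in media. Myeloid markers summed to 17.7 to 24.4 CPM in rat tail collagen, 9.67 to 10.5 in bovine collagen, 9.14 to 10.1 in media and 33.3 to 122 in naive libraries, with Cd68 at 18.8 ± 3.69 CPM in rat tail collagen, against 6.35 ± 1.55 in media, and Itgam at 1.08 ± 0.74 against 3.03 ± 0.97 CPM. Red cell markers summed to 1.42 to 2.66, 0.154 to 0.253 (Hbb-bs at 0), 0.065 to 0.306 (Alas2 at 0) and 1.41 to 11.7 CPM in the same order. Most of the rat tail collagen sum is Alas2 (1.44 ± 0.81 CPM), and no globin gene averaged above 0.191 CPM there. B cell markers summed to 7.64 to 9.02, 12.3 to 14.8, 12.8 to 15.4 and 15.5 to 20.5 CPM, and stromal markers to 71.5 to 78.5, 126 to 144, 131 to 150 and 137 to 165 CPM, in the same order. Most of the stromal sum is Pecam1 and most of the B cell sum Cd79b, while Col1a1 had 4.28 ± 0.52 CPM in rat tail collagen, against 0.317 ± 0.055 in media. Markers of NK and CD4 T cells summed to 58.9 to 71.8 CPM in rat tail collagen, 24.9 to 36.8 in bovine collagen, 21.5 to 37.9 in media and 18.1 to 39.7 in naive libraries, and their members differed. Zbtb7b had 53.8 ± 5.15 CPM in rat tail collagen, against 26.5 ± 7.10 in media, Klrb1c 8.69 ± 1.08 against 0.329 ± 0.152, Cd4 2.39 ± 0.27 against 2.92 ± 0.91, and Ncr1 was under 0.2 CPM on average in each day 4 group. The part of ribosomal RNA and of other cells in the results below was not tested. In bulk RNA, fewer cells of a type and less RNA per cell cannot be told apart.

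Cells in rat tail collagen held a mixed change of these genes against cells in media, with more members lower than higher. Of the 34 members tested by edgeR's quasi-likelihood test with Benjamini-Hochberg adjustment over all 19392 genes, 7 were higher, 16 were lower and 11 were not called at an adjusted p under 0.05. The shares are 20.6% higher and 47.1% lower, beside 29.7% higher and 28.7% lower among all genes tested. The median log2 fold change of the members was -0.31, and that of all genes tested was -0.01. Among the 21 glycolysis genes 5 were higher and 8 lower, and among the 13 hypoxia genes tested 2 were higher and 8 lower. Leaving out the 3 libraries of highest ribosomal share, which keeps 1 rat tail collagen library assumed to vary like the other groups, left 4 higher and 11 lower. The raised members Pkm, Pfkp and Vegfa lost the call there, with log2 fold changes of 0.62, 0.36 and 0.98, as did the lowered members Tpi1, Pgk1, Slc2a3, Slc16a3 and Ndrg1, with -0.97, -0.61, -0.29, -0.58 and -0.43.

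**Figure D1:**
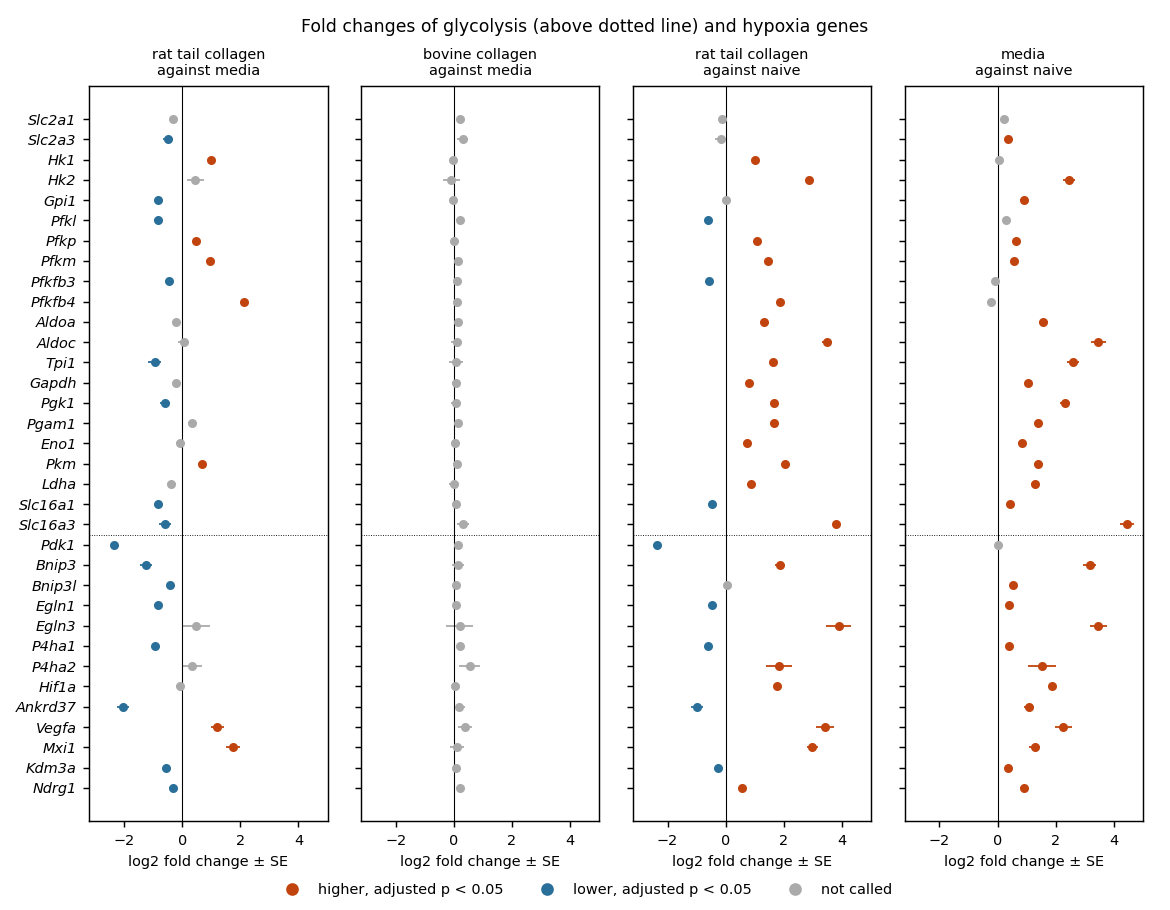
Log2 fold changes of the 34 tested members with their standard errors from edgeR, 1 panel per comparison; the axis runs from lower to higher in the first-named group, red and blue mark calls. Rat tail collagen against media holds 7 red and 16 blue points, bovine collagen against media holds none of either, and media against naive holds 28 red and no blue points.

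Pdk1, the kinase that holds back pyruvate dehydrogenase and so the entry of pyruvate into mitochondria, changed most. It had 52.0, 56.8 and 46.4 CPM in rat tail collagen, against 292, 280 and 283 CPM in bovine collagen, 286, 254 and 250 CPM in media and 244, 263 and 277 CPM in naive cells. The 3 rat tail collagen libraries lay far below all the others, and the other groups lay close together. The log2 fold change of rat tail collagen against media was -2.33 ± 0.09 (SE, adjusted p = 5.64e-09 by edgeR). The gene lies on chromosome 2 at 71873224 to 71903858 on the plus strand (GRCm38), with no overlapping exon of another gene.

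Ankrd37, an ankyrin repeat protein known as a HIF-1 target, had 1.19, 1.81 and 2.01 CPM in rat tail collagen, against 8.87, 8.0 and 6.73 CPM in bovine collagen, 7.91, 7.49 and 5.45 CPM in media and 3.18, 3.59 and 2.99 CPM in naive cells. The rat tail collagen libraries were the lowest of all groups. The log2 fold change against media was -2.03 ± 0.21 (adjusted p = 8.46e-06 by edgeR). Exons of Lrp2bp and Ufsp2 on the other strand cover 26.4% of the exon bases of Ankrd37, and the counting's use of strand is not stated in the sources used here.

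Further genes of the answer to low oxygen were lower in rat tail collagen. Egln1 encodes PHD2, the main hydroxylase that marks HIF-1α. It had 51.8, 54.5 and 47.4 CPM in rat tail collagen, against 106, 101 and 86.2 CPM in bovine collagen, 111, 88.9 and 79.6 CPM in media and 69.2, 71.4 and 70.0 CPM in naive cells. Its log2 fold change against media was -0.85 ± 0.12 (adjusted p = 9.59e-05 by edgeR), and the rat tail collagen libraries did not overlap any other group. P4ha1, a subunit of the enzyme that hydroxylates prolines of collagen chains, had 31.0, 32.0 and 32.7 CPM in rat tail collagen, against 78.8, 71.1 and 60.9 CPM in bovine collagen, 67.5, 65.0 and 52.4 CPM in media and 46.1, 50.5 and 44.4 CPM in naive cells. The log2 fold change of P4ha1 was -0.93 ± 0.11 (adjusted p = 2.47e-05). Kdm3a, a histone demethylase induced by HIF-1, and Bnip3l, a mitophagy receptor, fell by less, with log2 fold changes of -0.57 ± 0.06 and -0.43 ± 0.08. Ndrg1, a stress-induced gene, had -0.32 ± 0.12, and its libraries overlapped (15.8, 14.9 and 17.2 CPM in rat tail collagen, against 23.5, 19.6 and 17.1 CPM in media). The call of Ndrg1 was lost under 10 of 21 alternatives.

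Bnip3, a mitochondrial outer membrane protein that marks mitochondria for autophagy, had 11.9, 10.7 and 9.27 CPM in rat tail collagen, against 32.7, 31.5 and 20.9 CPM in bovine collagen, 32.5, 25.9 and 18.4 CPM in media and 3.10, 2.34 and 3.08 CPM in naive cells. The rat tail collagen libraries lay between the naive libraries and the other day 4 libraries. The log2 fold change against media was -1.25 ± 0.21 (adjusted p = 0.00043 by edgeR). The annotation holds 4 near-identical copies of Bnip3, with 43.5% as many counts as Bnip3 itself, and with their counts added the log2 fold change was -0.78 ± 0.17 and still called. Exons of Gm45507 on the other strand cover 22.25% of the exon bases of Bnip3.

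Hif1a itself, the oxygen-controlled subunit of HIF-1, was not called. It had 368, 318 and 326 CPM in rat tail collagen, against 397, 397 and 310 CPM in bovine collagen, 414, 376 and 301 CPM in media and 97.0, 103 and 94.2 CPM in naive cells. Its log2 fold change against media was -0.09 ± 0.13, and the groups of day 4 overlapped. HIF-1α is controlled mainly through the stability of the protein, which RNA does not show. Egln3, the PHD3 hydroxylase, spread widely in rat tail collagen, with 51.1, 36.5 and 18.6 CPM there, against 33.4, 28.8 and 15.2 CPM in media, and was not called (log2 fold change 0.47 ± 0.47). P4ha2, the other prolyl 4-hydroxylase subunit, stayed at or below 1.18 CPM in every library and was not called either.

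Of the hypoxia genes, Mxi1 and Vegfa rose in rat tail collagen. Mxi1, a MYC antagonist that pairs with MAX, had 115, 90.2 and 67.6 CPM in rat tail collagen, against 34.7, 30.7 and 22.5 CPM in bovine collagen, 34.3, 27.9 and 19.8 CPM in media and 11.9, 10.8 and 11.2 CPM in naive cells. Vegfa, the secreted growth factor for blood vessels, had 11.8, 11.7 and 17.6 CPM in rat tail collagen, against 9.18, 9.09 and 5.07 CPM in bovine collagen, 6.97, 6.09 and 4.82 CPM in media and 0.839, 1.87 and 1.03 CPM in naive cells. For both genes the lowest rat tail collagen library lay above the highest library of every other group. The log2 fold changes against media were 1.75 ± 0.24 for Mxi1 (adjusted p = 0.000164) and 1.21 ± 0.24 for Vegfa (adjusted p = 0.00103), both by edgeR. Adm, which encodes the vasodilator peptide adrenomedullin, did not pass the filter on low counts in any comparison, with 17 counts in all over the rat tail collagen libraries, 3 over bovine collagen, 1 over media and 14 over naive libraries. DESeq2, and edgeR with no filter beyond 1 count, called Adm higher in rat tail collagen against media (log2 fold changes of 4.01 and 3.64), which rests on these few counts.

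**Figure D2:**
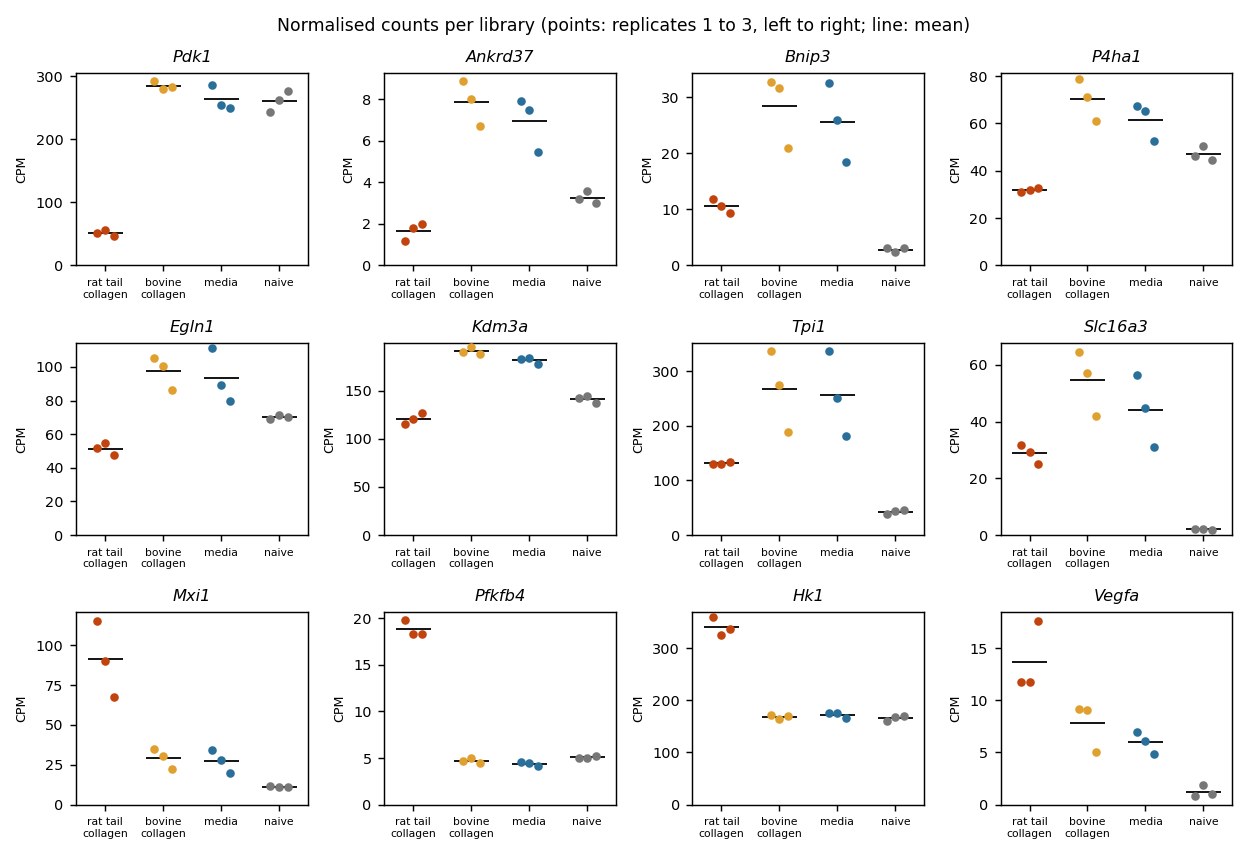
CPM of 12 members in each library, with rat tail collagen, bovine collagen, media and naive from left to right; points are replicates 1 to 3 and lines are means, and each axis starts at 0. Pdk1 sits at 46.4 to 56.8 CPM in rat tail collagen and at 244 to 292 CPM in all other libraries, and Hk1 at 326 to 359 CPM against 160 to 176 CPM.

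At the entry of glycolysis, Hk1, a hexokinase that binds mitochondria, was raised in rat tail collagen. It had 359, 326 and 337 CPM there, against 172, 165 and 169 CPM in bovine collagen, 176, 176 and 166 CPM in media and 160, 167 and 170 CPM in naive cells. All libraries outside rat tail collagen lay within a narrow band, below the rat tail collagen libraries. The log2 fold change against media was 1.0 ± 0.07 (adjusted p = 3.82e-07 by edgeR). Hk2, the inducible hexokinase, had 61.8, 53.4 and 60.7 CPM in rat tail collagen, against 51.7, 48.8 and 29.1 CPM in media, and was not called (0.46 ± 0.28). The glucose transporters had lower values: Slc2a3 (GLUT3) had a log2 fold change of -0.49 ± 0.18 and was called, and Slc2a1 (GLUT1) had -0.30 ± 0.12 with an adjusted p of 0.0546 by edgeR. The Slc2a3 call was lost under 8 alternatives and Slc2a1 was called under 6, so that neither is firm.

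The subunits of phosphofructokinase, which commits sugar to glycolysis, moved in different directions. Pfkl, the liver-type subunit, had 42.5, 44.4 and 49.7 CPM in rat tail collagen, against 106, 98.1 and 77.3 CPM in bovine collagen, 96.6, 84.6 and 65.9 CPM in media and 63.4, 68.8 and 69.9 CPM in naive cells. Pfkp, the platelet-type subunit, had 403, 360 and 402 CPM in rat tail collagen, against 294, 281 and 255 CPM in bovine collagen, 287, 293 and 263 CPM in media and 176, 179 and 182 CPM in naive cells. Pfkm, the muscle-type subunit, had 48.7, 40.0 and 33.9 CPM in rat tail collagen, against 25.9, 21.8 and 22.7 CPM in bovine collagen, 21.7, 23.0 and 19.6 CPM in media and 13.7, 14.2 and 15.3 CPM in naive cells. Rat tail collagen libraries were thus lowest for Pfkl and highest for Pfkp and Pfkm, with no overlap. The log2 fold changes against media were -0.84 ± 0.14 for Pfkl, 0.49 ± 0.08 for Pfkp and 0.95 ± 0.12 for Pfkm, with adjusted p-values of 0.000415, 0.000427 and 5.42e-05 by edgeR. Gm26513 on the same strand and Senp1 on the other together share 10.75% of the exon bases of Pfkm. In RPKM, Pfkl made up 14.2% ± 1.62 of the sum of the 3 subunits in rat tail collagen, against 33.6% ± 2.23 in bovine collagen, 30.9% ± 3.13 in media and 36.3% ± 0.73 in naive cells (SD, n = 3).

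The bifunctional enzymes that make and break fructose 2,6-bisphosphate, the activator of phosphofructokinase, also split. Pfkfb4 had 19.9, 18.3 and 18.3 CPM in rat tail collagen, against 4.67, 5.05 and 4.43 CPM in bovine collagen, 4.58, 4.42 and 4.12 CPM in media and 5.01, 4.98 and 5.21 CPM in naive cells. Pfkfb3 had 33.0, 31.3 and 27.4 CPM in rat tail collagen, against 47.6, 48.8 and 40.8 CPM in bovine collagen, 44.2, 43.5 and 39.7 CPM in media and 44.7, 46.1 and 43.8 CPM in naive cells. In rat tail collagen Pfkfb4 was above, and Pfkfb3 below, every library of the other groups. The log2 fold changes against media were 2.12 ± 0.10 for Pfkfb4 (adjusted p = 2.57e-08) and -0.46 ± 0.09 for Pfkfb3 (adjusted p = 0.00126), both by edgeR. The share of Pfkfb4 in the summed RPKM of the pair was 49.0% ± 1.76 in rat tail collagen, against 13.8% ± 0.59 in bovine collagen, 13.8% ± 0.13 in media and 14.9% ± 0.63 in naive cells (SD, n = 3).

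**Figure D3:**
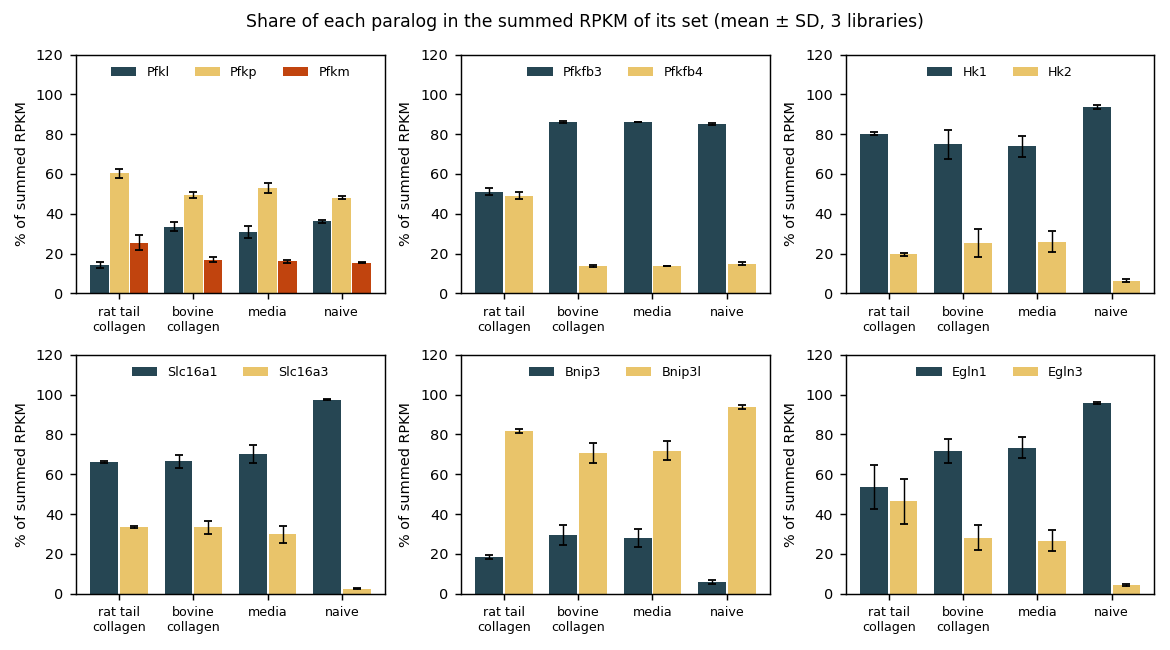
Share of each paralog in the summed RPKM of its set, as mean and SD of 3 libraries, with rat tail collagen left, then bovine collagen, media and naive; bars of 1 set add to 100% within a group. Pfkfb4 takes 49.0% in rat tail collagen and 13.8% to 14.9% elsewhere, and Slc16a3 takes 29.8% to 33.6% in the day 4 groups and 2.56% in naive cells.

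Among the remaining enzymes of the glycolytic chain, 3 members were lower and Pkm was higher. Gpi1, which isomerises glucose 6-phosphate, had 357, 366 and 378 CPM in rat tail collagen, against 752, 645 and 593 CPM in media, a log2 fold change of -0.84 ± 0.09 (adjusted p = 1.69e-05 by edgeR). Exons of Gm26762 on the other strand cover 11.48% of the exon bases of Gpi1. Tpi1, triose phosphate isomerase, had 131, 130 and 134 CPM in rat tail collagen, against 336, 275 and 188 CPM in bovine collagen, 337, 250 and 181 CPM in media and 37.9, 43.5 and 45.1 CPM in naive cells, with -0.94 ± 0.23 against media (adjusted p = 0.00513). The rat tail collagen libraries of Tpi1 agree closely, while those of media and bovine collagen span nearly 2-fold. Pgk1, the first enzyme to return ATP, had -0.59 ± 0.18, and its call was lost under 4 alternatives. Pkm, pyruvate kinase, was higher, with 1401, 1357 and 1451 CPM in rat tail collagen, against 1061, 881 and 709 CPM in media. Its log2 fold change was 0.68 ± 0.14 (adjusted p = 0.00158 by edgeR), and with offsets for GC content and length it was 0.29 and not called. A gene on the same strand, Gm49759, shares 15.3% of the exon bases of Pkm. Aldoa, Aldoc, Gapdh, Eno1, Pgam1 and Ldha were not called, with log2 fold changes between -0.37 for Ldha and 0.32 for Pgam1. Pgam1 was called higher under 10 alternatives, and Aldoa, Gapdh, Ldha and Eno1 were called lower under 4, 4, 3 and 2.

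Both lactate transporters had lower values in rat tail collagen than in media. Slc16a1 (MCT1), which carries lactate and pyruvate in both directions, had 51.2, 48.5 and 41.9 CPM in rat tail collagen, against 98.2, 88.2 and 82.7 CPM in bovine collagen, 95.7, 80.7 and 78.7 CPM in media and 67.4, 65.2 and 57.7 CPM in naive cells. Its log2 fold change was -0.83 ± 0.10 (adjusted p = 3.25e-05 by edgeR), and the rat tail collagen libraries were the lowest. Slc16a3 (MCT4), known as the exporter of highly glycolytic cells, had 31.9, 29.5 and 24.9 CPM in rat tail collagen, against 64.7, 57.2 and 41.8 CPM in bovine collagen, 56.5, 44.9 and 31.1 CPM in media and 2.03, 2.26 and 1.73 CPM in naive cells. Rat tail collagen and media overlapped for Slc16a3, and the call (-0.60 ± 0.21, adjusted p = 0.0312) was lost under 7 alternatives.

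Among other genes of glucose and pyruvate handling, 20 of 38 tested were higher and 8 lower in rat tail collagen, compared with media, with a median log2 fold change of 0.28. Those with the smallest adjusted p-values include paralogs of members that were not called: the enolases Eno2 and Eno3 had log2 fold changes of 3.13 ± 0.21 and 2.02 ± 0.16, while the member Eno1 had -0.06 ± 0.16. Bpgm, which makes 2,3-bisphosphoglycerate, had 3.60 ± 0.14, with 171 ± 28.9 CPM in rat tail collagen and 14.3 ± 1.11 CPM in media (SD, n = 3). Emb, a chaperone of monocarboxylate transporters, was lower (-1.10 ± 0.09). In the pentose phosphate pathway 2 of 10 were higher and 3 lower. Tkt, transketolase, Rpia and Prps2 were lower (-0.95 ± 0.12, -0.98 ± 0.10 and -0.76 ± 0.07), and H6pd was higher (0.60 ± 0.09).

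Of the regulators of HIF, 5 of 22 tested were higher and 2 lower in rat tail collagen than in media. Epas1, which encodes HIF-2α, had 57.3 ± 20.2 CPM in rat tail collagen and 4.91 ± 1.73 CPM in media, a log2 fold change of 3.56 ± 0.42 (adjusted p = 0.00013 by edgeR). Mtor, Cul2 and Os9 were higher by 0.52 ± 0.07, 0.41 ± 0.07 and 0.33 ± 0.06 on the log2 scale. Of other HIF targets, 8 of 39 tested were higher and 12 lower, with a median of 0.05. Stc1, a secreted glycoprotein, had 117 ± 7.40 CPM in rat tail collagen and 0.0625 ± 0.034 CPM in media. Plod1, a lysyl hydroxylase of collagen, was higher by 1.55 ± 0.09 on the log2 scale, and Narf was lower (-0.79 ± 0.07). In the network of MYC, MAX and the glucose sensors of the Mondo family, 5 of 14 were higher and 3 lower. Mxd3, like Mxi1 a partner of MAX, was lower (-1.49 ± 0.10), as was Txnip, an inhibitor of glucose uptake that glucose itself is known to raise (-1.18 ± 0.14). Mlxip, next by adjusted p, was higher (0.52 ± 0.08). These counts stand beside the 29.7% higher and 28.7% lower among all genes tested.

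Rat tail collagen against bovine collagen, which are both gels, gave nearly the same counts, with 7 members higher, 17 lower and 10 not called. All genes tested were called at 28.4% higher and 26.4% lower. The median log2 fold change of the members was -0.43 and that of all genes 0.00. Pdk1 had -2.45 ± 0.09, Ankrd37 -2.21 ± 0.21, Bnip3 -1.41 ± 0.22, P4ha1 -1.13 ± 0.11, Pfkl -1.03 ± 0.14 and Tpi1 -1.01 ± 0.23. Pfkfb4 had 2.01 ± 0.10, Mxi1 1.65 ± 0.25, Hk1 1.02 ± 0.07, Vegfa 0.83 ± 0.24, Pfkm 0.81 ± 0.13, Pkm 0.59 ± 0.14 and Pfkp 0.50 ± 0.08. Slc2a1 was called lower here (-0.53 ± 0.13, adjusted p = 0.00383 by edgeR), with 38.8, 35.1 and 41.5 CPM in rat tail collagen, against 63.1, 57.9 and 46.5 CPM in bovine collagen. Slc2a1, Tpi1, Pfkp, Pkm and Vegfa did not keep the call under every alternative. With the 3 libraries richest in ribosomal RNA left out, Slc2a1 had -0.64, Tpi1 -1.01 and Pfkp 0.39. Under the 2 alternatives that each lost, Pkm had 0.22 to 0.53 and Vegfa 0.61 to 0.72. For Vegfa 1 of these left out rat tail collagen library 3. Without the 3 libraries of highest ribosomal share the counts were 4 higher and 11 lower. This comparison shares the rat tail collagen libraries with the one above, and its values stand beside those for that reason and not as a repeat.

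In bovine collagen no member was called against media, either higher or lower, by edgeR's quasi-likelihood test, and none had an unadjusted p under 0.05. DESeq2 and limma-voom also called 0 members. Of all genes tested 0.0206% were called higher and 0% lower. The log2 fold changes of members lay between -0.09 for Hk2 and 0.54 for P4ha2, with a median of 0.11 beside -0.01 for all genes, and 29 of 34 were above 0. Standard errors show what this fit, which has no replicate block, could have seen. Pdk1 had 0.12 ± 0.08, Hk1 -0.02 ± 0.07 and Kdm3a 0.08 ± 0.06, while Egln3 had 0.19 ± 0.47 and P4ha2 0.54 ± 0.35. Any variation shared by libraries of the same number is part of these errors. With the numbers as a block no member was called either. A missing call does not show that the levels are equal.

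The members varied together between libraries of the same group, in media and bovine collagen more than elsewhere. In media, library 1 was the highest for 30 of the 34 members tested and library 3 the lowest for 32. In bovine collagen, library 1 was the highest for 29 and library 3 the lowest for 30. In rat tail collagen the highest library was number 1 for 20 members, number 2 for 3 and number 3 for 11, and in naive cells these counts were 6, 12 and 16. The median coefficient of variation over the members was 7.52% in rat tail collagen, 13.7% in bovine collagen, 17.8% in media and 6.88% in naive cells. Tpi1, Bnip3 and Slc16a3 show the pattern in the values given above or in the plot of CPM per library. Without media library 1, 12 members were lower in rat tail collagen than in media, and without media library 3, 20 were. The order of libraries and the variation were not taken over all genes, so they show no trait particular to the members. Over all genes passing the filter, deviations of same-numbered bovine collagen and media libraries correlated at 0.391, 0.0383 and 0.476. Between numbers 1 and 3 the values were -0.402 and -0.433.

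Media cells of day 4 stood far above naive cells of day 0 for most members. Of 34 tested among 18610 genes, 28 were higher and 6 were not called, a share of 82.4% higher beside 31.6% among all genes. No member was lower in this edgeR fit, and none of those below had an unadjusted p under 0.05, beside 29.2% lower among all genes. DESeq2, and edgeR with no filter beyond 1 count, called 1 lower, Adm, which rests on 1 count over the media libraries and 14 over the naive libraries. An edgeR fit of all 12 libraries called Pfkfb4 lower (-0.28). The median log2 fold change of the members was 0.99, and that of all genes was 0.00. Slc16a3 led with 4.46 ± 0.24 (adjusted p = 5.2e-07 by edgeR), followed by Aldoc, the brain-type aldolase (3.47 ± 0.26), Egln3 (3.47 ± 0.29), Bnip3 (3.17 ± 0.22), Tpi1 (2.60 ± 0.20), Hk2 (2.45 ± 0.21), Pgk1 (2.31 ± 0.17) and Vegfa (2.26 ± 0.29). Aldoc had 11.3, 9.06 and 6.43 CPM in media, against 0.788, 0.975 and 0.654 CPM in naive cells, and stayed a small part of the aldolases, at 0.914% of their summed RPKM in media and 0.253% in naive cells. With near-identical copies added, the change of Bnip3 was 1.35 ± 0.17 and that of Gapdh 1.82 ± 0.14, beside 1.06 ± 0.13 for Gapdh alone. Gapdh has 89 such copies, which hold 843% of its own counts. The setting for reads with several matches is not given, and such reads may be counted at more than 1 place. The level of the family is therefore not known.

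The rise was unequal within pairs of paralogs. In media, Hk2 made up 26.0% ± 5.24 of the summed hexokinase RPKM, against 6.38% ± 0.89 in naive cells, and Hk1 had a log2 fold change of 0.05 ± 0.07. The size of this share depends on the length used. With the longest transcript in place of all exons, Hk2 made up 16.1% ± 3.61 in media and 3.57% ± 0.51 in naive cells. Slc16a3 made up 29.8% ± 4.42 of the lactate transporter pair in media, against 2.56% ± 0.21 in naive cells. Egln3 made up 26.6% ± 5.36 of its pair in media, against 4.28% ± 0.63 in naive cells, and Bnip3 made up 28.1% ± 4.58, against 6.03% ± 1.0. The Bnip3 share leaves out near-identical copies. With copies added, the log2 fold change of Bnip3 was 1.35 in place of 3.17, so the size of this share depends on them. The genes not called were Slc2a1 (0.23 ± 0.11), Hk1, Pfkl (0.29 ± 0.13), Pfkfb3 (-0.08 ± 0.07), Pfkfb4 (-0.21 ± 0.13) and Pdk1 (0.01 ± 0.09). Hif1a rose by 1.89 ± 0.12, with 414, 376 and 301 CPM in media, against 97.0, 103 and 94.2 CPM in naive cells.

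**Figure D4:**
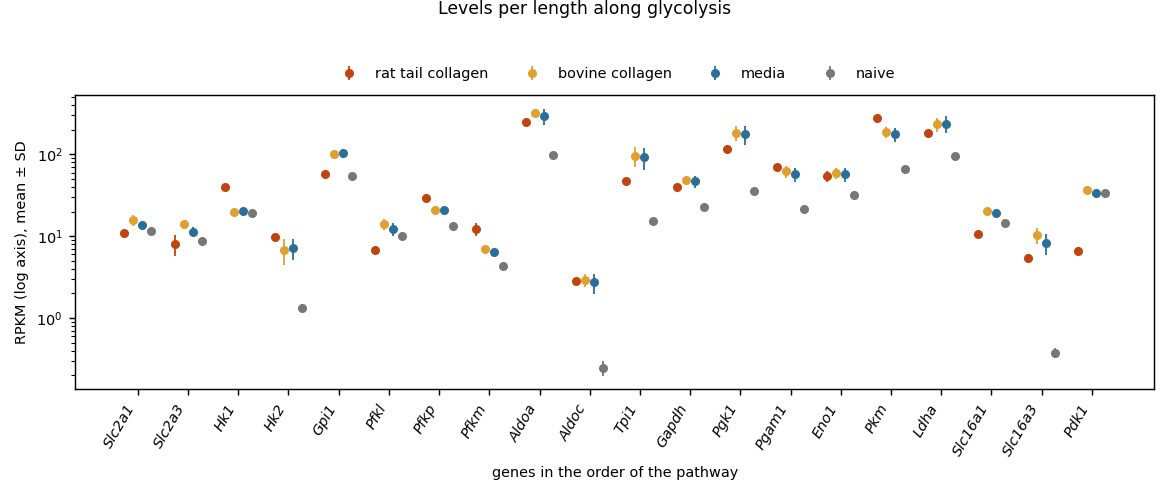
RPKM of 20 members in the order of the pathway, on a log axis, as mean and SD of 3 libraries per group, with rat tail collagen left, then bovine collagen, media and naive. Naive cells are lowest for most steps, with Slc16a3 at 5.41 to 10.3 RPKM in the day 4 groups and 0.377 RPKM in naive cells, and Pdk1 is lowest in rat tail collagen at 6.65 RPKM against 33.6 to 36.6 RPKM in the other groups.

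Per length, the pathway was uneven in its levels. Aldoa (295 ± 66.5 RPKM in media), Ldha (238 ± 54.3), Pkm (177 ± 35.2) and Pgk1 (176 ± 44.8) had the highest RPKM of the members in media, and each overlapped the next in this order within 1 SD. This order leaves out near-identical copies, which hold 843% as many counts as Gapdh, 169% as many as Eno1 and 54.3% as many as Pgk1. It therefore ranks the counts at the named genes, and the rank of Gapdh depends most on this. The transporters and first kinases stood lower in media, with 13.7 ± 1.76 RPKM for Slc2a1, 20.2 ± 0.63 for Hk1 and 7.24 ± 2.06 for Hk2. In rat tail collagen the order at the top was Pkm (281 ± 9.38 RPKM), Aldoa (251 ± 9.29), Ldha (181 ± 10.5) and Pgk1 (115 ± 7.96). Their spread was smaller in rat tail collagen than in media.

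Other genes of the lists moved both ways between media and naive cells, among 31.6% higher and 29.2% lower of all genes tested. Of other genes of glucose and pyruvate handling 13 of 35 tested were higher and 7 lower, with Slc2a6, a glucose transporter, at 3.76 ± 0.36 and Pck2, the mitochondrial phosphoenolpyruvate carboxykinase, at 1.99 ± 0.10. Adpgk, an ADP-dependent glucokinase, was lower (-1.53 ± 0.07). In the pentose phosphate pathway 6 of 10 were higher and 2 lower, led by Tkt at 1.13 ± 0.13. The lower genes were H6pd (-0.60 ± 0.09) and Prps2 (-0.51 ± 0.08). HIF regulators gave 7 higher and 9 lower of 22, with Cited2, which competes with HIF-1 for its coactivators, at -1.24 ± 0.10. Other HIF targets gave 15 higher and 9 lower of 36, with Plod2 at 4.23 ± 0.16 and Tfrc, the transferrin receptor, at 2.02 ± 0.14. Kdm4b, next to Plod2 by adjusted p, was lower (-1.19 ± 0.07). The MYC network gave 4 higher and 6 lower of 13, with Mxd3 at 5.72 ± 0.12. In bovine collagen against media none of these lists held a called gene by edgeR.

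Set directly against naive cells, cells in rat tail collagen had 22 members higher, 8 lower and 4 not called of 34 tested. Without the 3 libraries of highest ribosomal share these counts were also 22 and 8. Among all 19449 genes tested 36.5% were called higher and 35.4% lower. The median of the members was 1.04 and that of all genes 0.00. The most raised were Egln3 (3.89 ± 0.44), Slc16a3 (3.81 ± 0.13), Aldoc (3.48 ± 0.16), Vegfa (3.42 ± 0.30), Mxi1 (2.98 ± 0.19), Hk2 (2.86 ± 0.11), Pkm (2.04 ± 0.09) and Bnip3 (1.86 ± 0.15), and with its copies added Bnip3 had 0.53 ± 0.10. The 8 lower members were Pdk1 (-2.37 ± 0.09), Ankrd37 (-0.99 ± 0.21), Pfkl (-0.60 ± 0.08), Pfkfb3 (-0.59 ± 0.08), P4ha1 (-0.59 ± 0.07), Egln1 (-0.49 ± 0.06), Slc16a1 (-0.46 ± 0.09) and Kdm3a (-0.26 ± 0.06). In media these 8 genes had log2 fold changes against naive cells between -0.08 for Pfkfb3 and 1.09 for Ankrd37, and the comparisons share the naive libraries. Gpi1, Bnip3l, Slc2a1 and Slc2a3 were not called, with log2 fold changes from -0.18 to 0.06.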

How the data were processed

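Bulk RNA-seq was measured in 12 libraries, 3 per group. The authors deposited 1 table of raw counts per gene symbol, and it was used as deposited. The submitters' processing notes name HISAT2, featureCounts and the build GRCm38; for strand, reads with several matches and annotation release, the setting is not given in the sources used here. Columns were joined to groups through library names.

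The members and lists were chosen with earlier results of these data known. Genes passing filterByExpr were scaled with TMM and tested with the quasi-likelihood test of edgeR 4.0.16 (robust), with Benjamini-Hochberg adjustment over all genes tested and calls at 0.05. The 9 day 4 libraries shared 1 fit; each comparison with naive cells used its own 6 libraries. Standard errors were derived from the F statistic. Lengths, overlaps and copies (95% identity over 200 bases, BLAST 2.17.0) come from GENCODE M21, which held 53291 of the symbols. The steps were tested on simulated data. Members described in full were called, did not overlap between groups and reached 5 CPM, up to 8 per direction, beside fixed paralog sets; values of Hif1a, Ndrg1 and Adm were added after they were seen; list genes were up to 4 of smallest adjusted p, of which 1 is not reported here.

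The alternatives were RLE factors, library totals, DESeq2 1.42.0, limma-voom (limma 3.58.1), other filters, other sets of libraries, a replicate block, GC and length offsets, removal of ribosomal genes, leaving out each library and, added after the data were seen, adding copies.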

Additional observations from a re-analysis of the deposited data

How the results depend on the processing

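No log2 fold change of a member that was called reversed its sign under any of the alternatives tried, which number 21 for rat tail collagen against media. Of 714 values there (34 members under each alternative), 649 kept their side of the threshold, 34 lost a call and 31 gained one. For rat tail against bovine collagen these were 681, 12 and 21 of 714, for media against naive 633, 6 and 6 of 645, and for rat tail collagen against naive 674, 1 and 4 of 679; in bovine collagen against media none of 714 gained or lost a call. Leaving out the 3 libraries of highest ribosomal share (rat tail collagen 1 and 3, bovine collagen 2) gave 4 members higher in rat tail collagen against media, and 4 higher and 11 lower against bovine collagen; it leaves 1 rat tail collagen library, so fewer samples stand behind it. One member was called lower in media than in naive cells under DESeq2 and with no filter beyond 1 count, each time 1 gene, Adm, and 1 in a fit of all 12 libraries, Pfkfb4 (-0.28), whose cause was not tested. Leaving out each library in turn gave 7 to 8 members higher and 12 to 20 lower in rat tail collagen against media. GC and length offsets gave 6 higher and 20 lower there. Replicate numbers were not taken as pairing, since same-numbered libraries of rat tail collagen and media correlated at 0.0562 to 0.119 in their deviations, although 3 of 3 correlated best with their own number; for bovine collagen and media the values were 0.391, 0.0383 and 0.476, so not every pair was over 0.1. With the numbers as a block, 9 were higher and 18 lower against media, and 9 and 20 against bovine collagen; the block made Egln3, higher in rat tail collagen by 0.44 and 0.24, called in both. Counting error matters most for Adm, P4ha2 and, in naive cells, Aldoc and Vegfa (97 and 150 counts over the group).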
